A study of Sus scrofa with 28 samples.

Results

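The genes described here remodel chromatin or write, erase and read histone modifications. They are the 64 protein-coding RefSeq genes of the pig build Sscrofa11.1 whose symbols begin with KDM, KMT, SMARC, HDAC or ARID, or with BRD and a digit, out of 19484 protein-coding genes placed on the chromosomes of the peak list. A gene counted as listed in a library when that library's peak list held a peak with its centre within 1000 bp of either annotated end of the gene. The rule reads symbols alone and no measured value, but the set was chosen with earlier results of these data known. They comprise 16 KDM, 8 KMT, 13 SMARC, 11 HDAC, 10 ARID and 6 BRD genes.

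Open chromatin was profiled by ATAC-seq, in which a transposase cuts accessible DNA and tags it for sequencing. The tissue was liver of female Zlotnicka White pigs aged 180 days, which shared feeding and housing and were slaughtered at about 100 kg. The 28 libraries fall into 4 groups of 7. Each group has a high or a low fat content and carries the number 200 or 600, whose meaning is not stated, and the labels give both under shear force. Before library preparation with a TruePrep kit, liver pieces in hepatocyte medium were treated with Accutase, passed through a strainer and frozen slowly. No group carries a transgene, drug or deletion by the labels, which set the groups apart only by fat content and the number 200 or 600. Libraries that match in title number, fat group and replicate but carry different labels were treated as 1 animal, giving 14, although the labels name no animals. All 200 libraries share a lane tag and all 600 libraries another, so label and lane cannot be told apart. Because the labels do not say that replicates are separate animals, p-values measure the spread between these libraries.

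Chromatin remodellers use ATP to slide, evict or exchange nucleosomes. Histone methyltransferases and demethylases add and remove methyl groups on histone tails, deacetylases remove acetyl groups, and bromodomain proteins bind acetylated histones. In liver such factors are known for setting which metabolic genes respond to feeding, hormones and lipid. The roles given below come from work on the human and mouse proteins.

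The 28 libraries listed 84192 peaks, and the number per library ran from 39 to 17652. Only 15 libraries had at least 1000 peaks. The number of sequenced reads behind them is unknown, so no counting interval or detection limit is given. An unlisted gene end can be closed, thinly sequenced or removed from the list before deposit. Of the hepatocyte markers, 12 of 15 were listed at an end in at least 1 library, led by HPX in 11 and FOXA1 in 9, and CPS1 and HNF4A were among those without a listing. Endothelial and stellate markers (0 of 10) and cholangiocyte markers (0 of 5) were not listed at all, and Kupffer cell and macrophage markers were listed for 2 of 9, with CD14 in 6 libraries. Lymphocyte markers were listed for 1 of 7 and erythroid markers for 1 of 4. In such bulk tissue, more cells with an open site and a site more open in each cell cannot be told apart.

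Of the 64 chromatin genes, 48 (75%) had a gene-end peak in at least 1 library. The share was 47.0% (9164 of 19484) over all protein-coding genes and 52.9% (8634 of 16315) over those with a symbol, which all 64 have. In at least 3 libraries 35 of the 64 were listed (54.7%), against 29.5% of all genes and 33.4% of those with a symbol. In at least 10 libraries it was 10 (15.6%), against 7.82% and 8.98%. The median gene of the set was listed in 3.5 libraries, while the medians of all genes and of those with a symbol were 0 and 1. Among listed genes alone the medians were 4.5 for the set and 4 for all genes. The chromatin genes were also longer, with a median of 57.2 kb against 20.7 kb for all genes and 25.6 kb for those with a symbol. No test was made of these shares, and the part of symbol status or gene length in them was not tested.

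**Figure D1:**
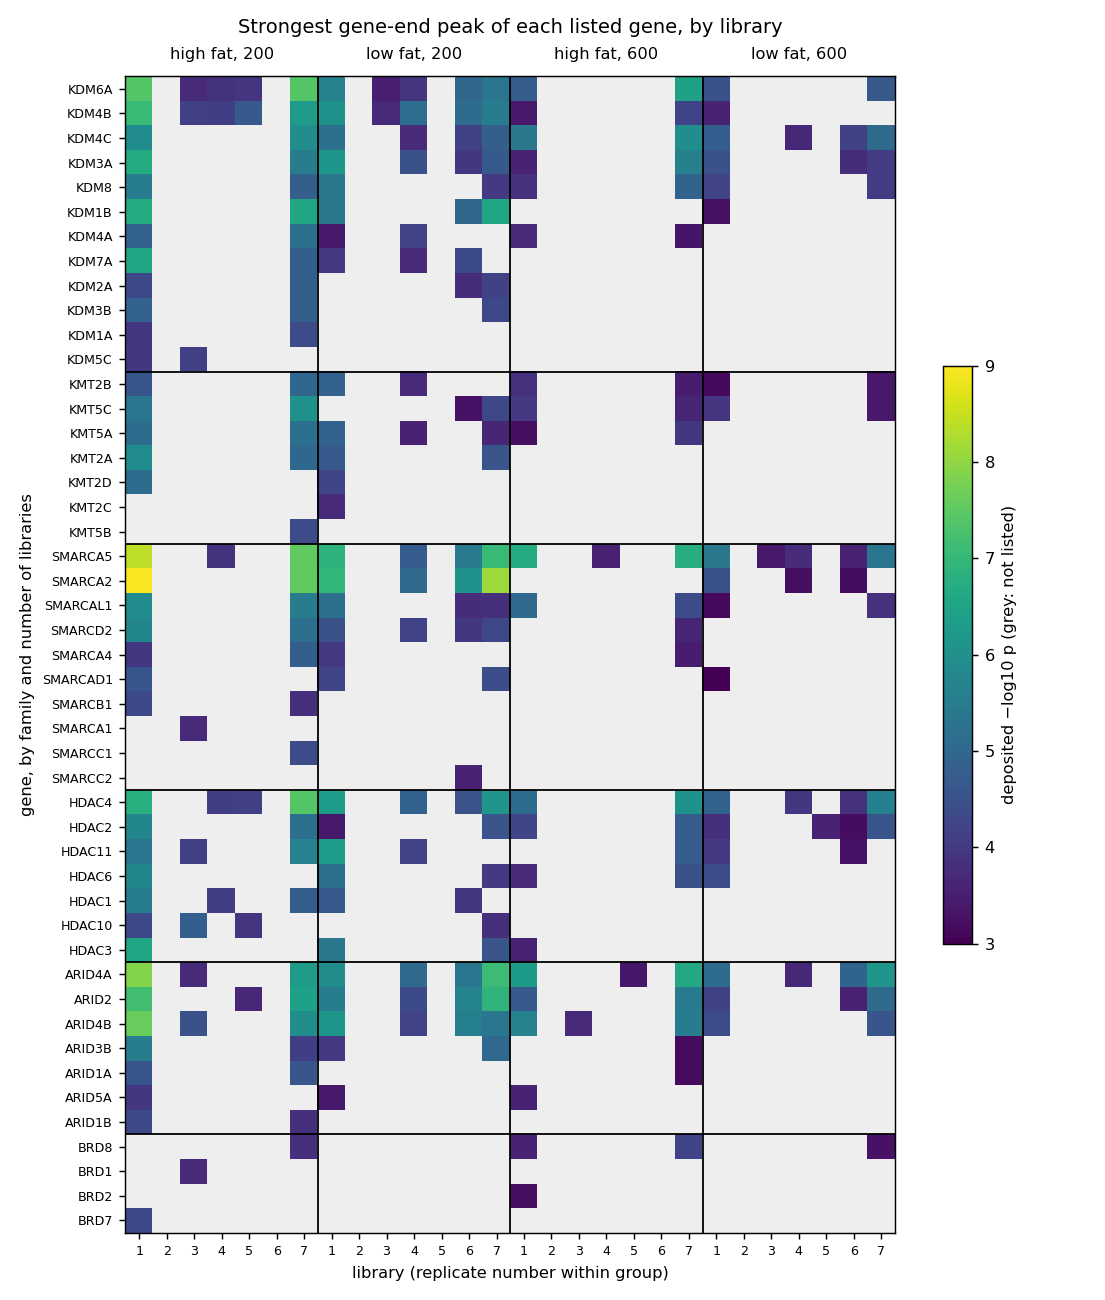
Heat map of the listed chromatin genes reported here (vertical axis, by family and number of libraries) in the 28 libraries (horizontal axis, by group and replicate). Colour gives the deposited −log10 p of the strongest gene-end peak and grey an unlisted end. Replicates 1 and 7 of both fat groups carry most of the colour, and the highest value is 8.97 for SMARCA2 in high fat 200 replicate 1.

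The ATP-dependent remodellers are represented by the SMARC genes, of which 10 of 13 were listed. SMARCA5, the motor of the ISWI complexes that space nucleosomes, was listed in 15 of 28 libraries, more than any other gene of the set. Its region covered the upper-coordinate end of the gene (chromosome 8, 84223928 to 84225490). The strength of a peak is given here as its deposited −log10 p, the authors' own value for that peak. For SMARCA5 it was 3.88, 7.55 and 8.39 in high fat 200 replicates 4, 7 and 1, and in low fat 200 it was 4.74, 5.47, 6.89 and 7.07 in replicates 4, 6, 1 and 7. In the 600 libraries it was 3.55, 6.69 and 6.75 in high fat replicates 4, 1 and 7, and in low fat it ran from 3.40 to 5.37 with a median of 3.75 over replicates 1, 3, 4, 6 and 7. The fat groups thus overlapped within each label. SMARCA5 was also the gene most often seen in libraries of low yield, among them high fat 600 replicate 4, with 190 peaks, and low fat 600 replicate 3, with 141.

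SMARCA2 and SMARCA4 encode BRM and BRG1, the alternative motors of the SWI/SNF complexes. SMARCA2 was listed in 9 libraries at its upper-coordinate end (chromosome 1, 219814382 to 219816047) and SMARCA4 in 4. The strength of SMARCA2 was 7.55 and 8.97 in high fat 200 replicates 7 and 1. In low fat 200 it was 5.07, 6.08, 6.98 and 8.12 in replicates 4, 6, 1 and 7. The 8.97 was the highest value of any gene of the set, and the fat groups overlapped. Of the 600 libraries, 0 of 7 with high fat and 3 of 7 with low fat listed SMARCA2, with strengths of 3.21, 3.22 and 4.50 in low fat replicates 6, 4 and 1. The count depended on how a peak was located. In high fat 600 replicates 1 and 7 a wider peak of the same locus (219812169 to 219816207) had its centre 1.26 kb inside the gene at the median over libraries. When any overlap with the window was counted, SMARCA2 was listed in 2 of 7 high fat 200, 4 of 7 low fat 200, 2 of 7 high fat 600 and 4 of 7 low fat 600 libraries. SMARCA4 had weaker peaks, from 3.48 to 4.81, in high fat 200 replicates 1 and 7, low fat 200 replicate 1 and high fat 600 replicate 7.

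SMARCAL1, an annealing helicase at stalled replication forks, was listed in 9 libraries (chromosome 15, 118626821 to 118628102). Its strength was 5.51 and 5.92 in high fat 200, 3.77 to 5.22 with a median of 3.82 in 3 low fat 200 libraries, 4.40 and 5.04 in high fat 600, and 3.15 and 3.85 in low fat 600. SMARCD2, an accessory SWI/SNF subunit, was listed in 7, of which 6 were 200 libraries. SMARCAD1, a helicase that helps to restore silent chromatin after replication, was listed in 4. The remaining listed members were seen in 1 or 2 libraries each, namely the core subunit gene SMARCB1 in 2 and the scaffold genes SMARCC1 and SMARCC2 and the ISWI motor gene SMARCA1 in 1 each. SMARCD1, SMARCD3 and SMARCE1, all genes of SWI/SNF subunits, were not listed.

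The ARID genes share a DNA-binding domain and belong to several complexes, and 7 of 10 were listed. ARID4A and ARID4B, which encode subunits of the SIN3 deacetylase complex, were listed in 14 and 12 libraries. The ARID4A region (chromosome 1, 187384246 to 187386865) had a strength of 3.74, 6.32 and 7.89 in high fat 200 replicates 3, 7 and 1, and of 5.07 to 7.12 with a median of 5.64 in 4 low fat 200 libraries. Under the 600 label it was 3.40, 6.28 and 6.62 in high fat replicates 5, 1 and 7, and 3.67 to 6.13 with a median of 5.04 in 4 low fat libraries. The fat groups overlapped under both labels. The window of each ARID4A peak also held an end of the uncharacterised gene LOC102165044, and with a peak given only to the nearest end ARID4A remained in 5 libraries.

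ARID4B (chromosome 14, 55923326 to 55925321) shared its end region with GGPS1, a gene of isoprenoid synthesis, and fell to 7 libraries when only the nearest end counted. Its strength was 4.49, 5.94 and 7.60 in high fat 200, 4.22 to 6.17 with a median of 5.47 in 4 low fat 200 libraries, 3.73, 5.54 and 5.66 in high fat 600, and 4.37 and 4.61 in low fat 600. ARID2, a subunit of the PBAF form of SWI/SNF, was listed in 12 libraries (chromosome 5, 76636340 to 76638912). Its strength was 3.70, 6.43 and 7.18 in high fat 200 replicates 5, 7 and 1, and 4.36 to 6.90 with a median of 5.61 in 4 low fat 200 libraries. Under the 600 label it was 4.68 and 5.48 in high fat and 3.56, 4.15 and 5.08 in low fat. ARID1A and ARID1B, the alternative large subunits of the BAF complex, were listed in 3 and 2 libraries. ARID3B, a transcription factor gene, was listed in 5 libraries and ARID5A, whose product binds messenger RNA in inflammation, in 3. ARID3A, ARID3C and ARID5B were not listed at an end.

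Among the histone demethylase genes 12 of 16 were listed, and they gave 86 of the 283 pairs of a listed gene and a library, the most of any family. KDM6A, which removes the repressive mark that Polycomb places, was listed in 14 libraries (chromosome X, 39952576 to 39954997). Its strength was 3.74, 3.88, 3.93, 7.39 and 7.40 in high fat 200 replicates 3, 4, 5, 7 and 1, and 3.50, 3.91, 4.97, 5.36 and 5.67 in low fat 200 replicates 3, 4, 6, 7 and 1. In the 600 libraries it was 4.77 and 6.44 in high fat and 4.50 and 4.68 in low fat, each time in replicates 1 and 7. The 200 libraries of the 2 fat groups thus overlapped, and the 2 highest values were both high fat.

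KDM4A, KDM4B and KDM4C remove methyl groups of a mark of silent chromatin. KDM4B was listed in 13 libraries (chromosome 2, 73889628 to 73890547), 5 of 7 in each fat group of the 200 set. Its strength was 4.12 to 7.06 with a median of 4.70 in high fat 200 and 3.71 to 6.06 with a median of 5.17 in low fat 200. The 600 values, 3.41 and 4.20 in high fat replicates 1 and 7 and 3.57 in low fat replicate 1, overlapped only the lower 200 values. KDM4C was listed in 12 libraries (chromosome 1, 215506781 to 215508663), 6 under each label. Its strength was 5.92 and 5.94 in high fat 200, 3.74 to 5.22 with a median of 4.50 in 4 low fat 200 libraries, 5.37 and 5.95 in high fat 600, and 3.67 to 5.08 with a median of 4.50 in 4 low fat 600 libraries. The listed high fat libraries, replicates 1 and 7, stood above every listed low fat library under both labels. KDM4C was not alone in this. The same held for SMARCAL1 under both labels and for KDM6A in the 600 libraries. In the 200 libraries it held for HDAC2, KMT5C, KMT2A, KMT5A and SMARCD2, among others. How often it held over all genes was not counted, so it is not given as a trait of these genes. Those 2 high fat replicates also gave the 2 highest peak numbers of each label. KDM4A was listed in 6 libraries.

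KDM3A and KDM3B act on the same mark, and KDM3A is known from mouse for a part in energy balance. KDM3A was listed in 11 libraries (chromosome 3, 58354417 to 58355876). Its strength was 5.51 and 6.68 in high fat 200, 3.98 to 6.17 with a median of 4.60 in 4 low fat 200 libraries, 3.57 and 5.61 in high fat 600, and 3.79, 4.04 and 4.50 in low fat 600, so the fat groups overlapped. KDM3B was listed in 3. Of the flavin-dependent demethylase genes, KDM1A was listed in 2 libraries and KDM1B in 6. All 6 KDM1B peaks also lay by an end of the drug metabolism gene TPMT, which was the nearer end in each. KDM8, a JmjC-domain gene, was listed in 8, KDM7A in 5, the CpG-binding KDM2A in 4 and KDM5C in 2. KDM2B, KDM5A, KDM5B and KDM6B were not listed.

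The deacetylase genes were listed for 7 of 11. HDAC4, a class IIa enzyme that shuttles between nucleus and cytoplasm under hormonal control, was listed in 14 libraries, and all other class IIa genes, HDAC5, HDAC7 and HDAC9, were not listed at an end. The HDAC4 region (chromosome 15, 138656635 to 138658536) had a strength of 4.12, 4.15, 6.82 and 7.39 in high fat 200 replicates 4, 5, 1 and 7, and of 4.52, 4.85, 6.13 and 6.29 in low fat 200 replicates 6, 4, 7 and 1. In the 600 libraries it was 5.13 and 6.05 in high fat replicates 1 and 7, and 3.86 to 5.63 with a median of 4.45 in 4 low fat libraries. The groups overlapped. The HDAC4 peak centres lay outside the annotated gene in 14 of 14 libraries, with offsets from its end of −268 to −692 bp, where a negative value is outside the gene. With a window of 500 bp HDAC4 was listed in 3 libraries.

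The class I deacetylases HDAC1, HDAC2 and HDAC3 work in corepressor complexes. HDAC2 was listed in 10 libraries (chromosome 1, 79900542 to 79902230), with 5.18 and 5.75 in high fat 200, 3.42 and 4.58 in low fat 200, 4.24 and 4.75 in high fat 600, and 3.21, 3.57, 3.84 and 4.61 in low fat 600. In low fat 600 replicate 5, a library of 119 peaks, HDAC2 was the only gene of the set and ranked 42 by strength. HDAC1 was listed in 5 libraries, all of them 200 libraries, and HDAC3 in 4, each time with an end of RELL2 in the window. HDAC3 remained in 1 library when only the nearest end counted. HDAC8, the remaining class I gene, was not listed. HDAC11, the class IV enzyme, was listed in 8. The class IIb genes HDAC6 and HDAC10 were listed in 6 and 4 libraries, and every HDAC6 peak lay nearer to an end of LOC110257658.

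Of the methyltransferase genes 7 of 8 were listed, none in more than 8 libraries. KMT2B, of the family that marks active promoters, and KMT5C, which acts at silent chromatin, were listed in 8 each, 2 in each of the 4 groups. The strength ran from 3.15 to 5.00 with a median of 3.80 for KMT2B and from 3.28 to 6.07 with a median of 3.96 for KMT5C. Every KMT2B peak also had an end of ZBTB32 in its window, and 5 libraries remained when only the nearest end counted. KMT5A, which places the first methyl group of the same mark as KMT5C, was listed in 7 libraries. KMT2A was listed in 4, KMT2D in 2, KMT2C and KMT5B in 1 each, and KMT2E in none.

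The bromodomain genes were listed for 5 of 6, but rarely. BRD8, of the TIP60 acetyltransferase complex, was listed in 4 libraries. An end of KIF20A lay in the window in all 4, and all 4 remained when only the nearest end counted. BRD8 had 3.84 in high fat 200 replicate 7, 3.57 and 4.20 in high fat 600 replicates 1 and 7 and 3.29 in low fat 600 replicate 7. No BRD gene was listed in any low fat 200 library. BRD1, BRD2 and BRD7 were listed in 1 library each, and BRD9, of the non-canonical BAF complex, in none.

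Whether fat content went with the listing of these genes was asked within each label and over animals. In the 200 libraries the set gave 94 listings in high fat and 91 in low fat libraries, a ratio of 1.03, where all protein-coding genes gave 1.10. In the 600 libraries it gave 48 and 50, a ratio of 0.96, where all genes gave 1.14. The number of listed chromatin genes per library was 13.4 ± 16.8 (SD, n = 7) in high fat 200, 13.0 ± 12.4 in low fat 200, 6.86 ± 10.7 in high fat 600 and 7.14 ± 7.38 in low fat 600, so the SD was close to the mean or above it in each group. In high fat 200 the counts were 40, 0, 9, 5, 5, 0 and 35 for replicates 1 to 7, and in low fat 200 they were 30, 0, 2, 16, 0, 18 and 25. High fat 600 had 21, 0, 1, 1, 1, 0 and 24 listed genes, and low fat 600 had 19, 0, 1, 5, 1, 10 and 14. Replicates 1 and 7 were the 2 highest in all 4 groups and replicate 2 was at 0 in all 4. The replicate number counts within a group, so the same number in high and low fat names different title numbers. The 200 and 600 libraries of a fat group with the same number are the same assumed animal, so the 4 groups are not separate observations.

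**Figure D2:**
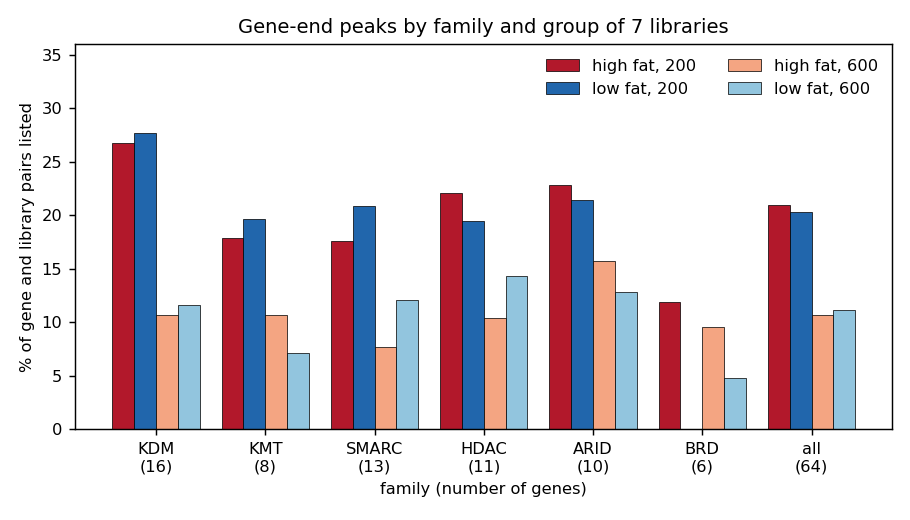
Percent of gene and library pairs listed (vertical axis) for each family and for all 64 genes (horizontal axis, number of genes in brackets), with a bar for each group of 7 libraries. For KDM genes the bars are 26.8% in high fat 200, 27.7% in low fat 200, 10.7% in high fat 600 and 11.6% in low fat 600, and for BRD genes in low fat 200 the value is 0%.

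No chromatin gene was called as different between the fat groups. In the 200 libraries 5191 genes listed in at least 3 of the 14 libraries were tested by Fisher's exact test, two-sided, with Benjamini-Hochberg adjustment over all of them. Of these 0% were called at an adjusted p under 0.05 and 0% at an unadjusted p under 0.05, and of the 31 chromatin genes tested 0 were called by either. Listing was more frequent in high fat libraries for 5 of the 31, in low fat libraries for 15 and equal for 11. Over all tested genes the shares were 27.6% and 44.2%, against 16.1% and 48.4% for the set. The smallest p that 7 against 7 libraries allow is 0.000583, and the smallest over all genes was 0.0699.

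The smallest p of the set in the 200 libraries was 0.559 (adjusted p = 1, Fisher's exact test), for HDAC10, whose product deacetylates polyamines. HDAC10 was listed in 3 high fat and 1 low fat library. Its peaks formed 4 separate regions, none in more than 2 libraries, and ends of MAPK12 or TUBGCP6 shared some of their windows. HDAC1 and HDAC11 followed, with 3 against 2 each (exact p = 1). In the other direction KDM3A, KDM4C and SMARCA2 were listed in 2 high fat and 4 low fat libraries each (exact p = 0.592, adjusted p = 1). In all 3 the high fat libraries were replicates 1 and 7 and the low fat libraries replicates 1, 4, 6 and 7. For each of these 6 genes both fat groups held listed and unlisted libraries, so the groups overlapped. SMARCD2 tied with KDM3A, KDM4C and SMARCA2, at 2 against 4 (exact p = 0.592), and only the order of symbols set it behind them.

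In the 600 libraries 2704 genes were tested, of which 0% were called at an adjusted p under 0.05 and 0% at an unadjusted p under 0.05, and of the 18 chromatin genes among them 0 were called by either. Listing was more frequent in high fat for 4, in low fat for 9 and equal for 5, or 22.2% and 50% against 24.1% and 40.5% of all tested genes. SMARCA2 had the smallest p, with 0 against 3 libraries (exact p = 0.192, adjusted p = 1), and its count depended on the peak centres as described above. HDAC2 and HDAC4 were listed in 2 high fat and 4 low fat libraries (exact p = 0.592 each). KDM4C, with 2 against 4, and SMARCA5, with 3 against 5, tied with them at the same exact p. ARID4B was listed in 3 against 2, and BRD8 and HDAC6 in 2 against 1 (exact p = 1 for each).

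Taking an animal as listed when either of its libraries listed the gene end, 5446 genes were tested over 7 against 7 animals, again with 0% called at an adjusted and 0% at an unadjusted p under 0.05. The 33 chromatin genes among them gave 0 calls, 6 with more high fat animals, 16 with more low fat animals and 11 equal. The shares were 18.2% and 48.5%, against 27.1% and 43.4% of all tested genes. HDAC10 was listed in 3 high fat and 1 low fat animal (exact p = 0.559), again over separate regions. BRD8 was listed in 2 against 1 (exact p = 1). HDAC2, KDM3A and KDM4C were listed in 2 against 4 (exact p = 0.592). SMARCA2 and SMARCD2, with 2 against 4, and SMARCA5, with 3 against 5, tied with them at the same exact p. This comparison reuses the libraries of the other 2 and is no separate evidence. With counts of this size a missing call does not show that the groups were alike.

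Library yield moved with the number of listed chromatin genes. High fat 200 replicate 1, with 17652 peaks, listed 40 of the 64, and 7 libraries with 39 to 617 peaks listed none. High fat 200 replicate 3 had 6288 peaks and listed 9, while low fat 200 replicate 7 had 6691 and listed 25. High fat 200 replicate 3 also listed fewer genes of any kind, 1583 against 4164. Leaving it out gave 0 chromatin genes called in each fat comparison it enters. That outcome tells nothing about its weight, since so few libraries leave a call hardly reachable over all genes tested. In the 15 libraries with at least 1000 peaks, the chromatin genes made up 0.251% to 0.906% of the listed genes, with a median of 0.600%. They are 0.328% of all protein-coding genes and 0.392% of those with a symbol, and 14 of the 15 libraries were above both, the exception being high fat 600 replicate 3 with 1 of 399 listed genes. Among the 1000 strongest peaks of each library with at least 1000, between 1 and 10 chromatin genes were listed. They made up 0.304% (high fat 600 replicate 3) to 1.06% (low fat 600 replicate 1) of all genes listed by those peaks.

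**Figure D3:**
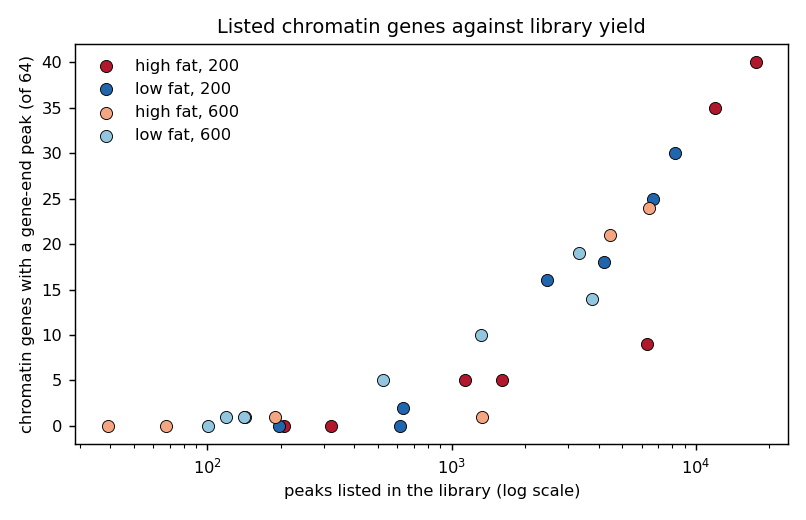
Number of chromatin genes with a gene-end peak (vertical axis, of 64) against the number of peaks in the library (horizontal axis, log scale), with a point for each of the 28 libraries coloured by group. The libraries run from 0 genes up to 40 genes at 17652 peaks, and high fat 200 replicate 3 lies low with 9 genes at 6288 peaks.

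Between the 600 and the 200 libraries, which also differ in lane, the set gave 98 listings against 185, a ratio of 0.530 where all genes gave 0.488. By family the ratio was 0.410 for KDM, 0.476 for KMT, 0.514 for SMARC, 0.594 for HDAC, 0.645 for ARID and 1.2 for BRD, the last from 6 listings against 5. Of 5741 genes tested over 14 against 14 libraries, 0% were called at an adjusted p under 0.05 by Fisher's exact test, among them 0 of 35 chromatin genes. At an unadjusted p under 0.05 it was 4.13% of all genes and 3 of the 35. In the direction of more 200 libraries the share of all genes was 4.11%, and all 3 had that direction. In the direction of more 600 libraries it was 0.0174%, and 0 of the 35. These unadjusted counts moved when single libraries were left out, also libraries that listed almost no genes. Without high fat 200 replicate 6, which listed 20 genes, the counts were 680 genes and 8 chromatin genes. Without high fat 600 replicate 6, which listed 1 gene, they stayed at 237 and 3. An exact p-value moves in steps and depends on the group sizes, which leaving out a library makes unequal. The moves therefore do not measure the weight of the library left out. In the full comparison KDM2A, HDAC10 and KMT2A, listed in 0 against 4, each had a Fisher's exact p of 0.0978. Leaving out 1 of high fat 200 replicates 2 to 6, low fat 200 replicates 2 to 7 or high fat 600 replicate 7 gave 377 to 680 genes, and leaving out each of the 28 libraries in turn gave 3 to 8 chromatin genes. Listing was more frequent in 200 libraries for 25 of the 35 (71.4%), against 84.1% of all tested genes.

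KDM4B was listed in 3 of 14 600 libraries and 10 of 14 200 libraries (exact p = 0.0213, adjusted p = 0.831), with 2 against 5 in high fat and 1 against 5 in low fat. HDAC1 and KDM7A were listed in 0 against 5 (exact p = 0.0407 and adjusted p = 0.831 for each). KDM6A had 4 against 10 (exact p = 0.0570). This test takes the libraries of an animal as independent. In an exact sign test over the assumed animals, all that differed had the 200 listing, 7 for KDM4B (p = 0.0156), 6 for KDM6A (p = 0.0313) and 5 each for HDAC1 and KDM7A (p = 0.0625), with an adjusted p of 0.569 for each of the 4 genes. In the other direction BRD8 had 3 against 1 (exact p = 0.596), HDAC2 had 6 against 4 (exact p = 0.695) and SMARCA5 had 8 against 7 (exact p = 1). The 600 libraries also listed fewer peaks, with medians of 190 in high fat and 526 in low fat against 1610 and 2467 in the 200 set, and the part of this in the counts was not tested.

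**Figure D4:**
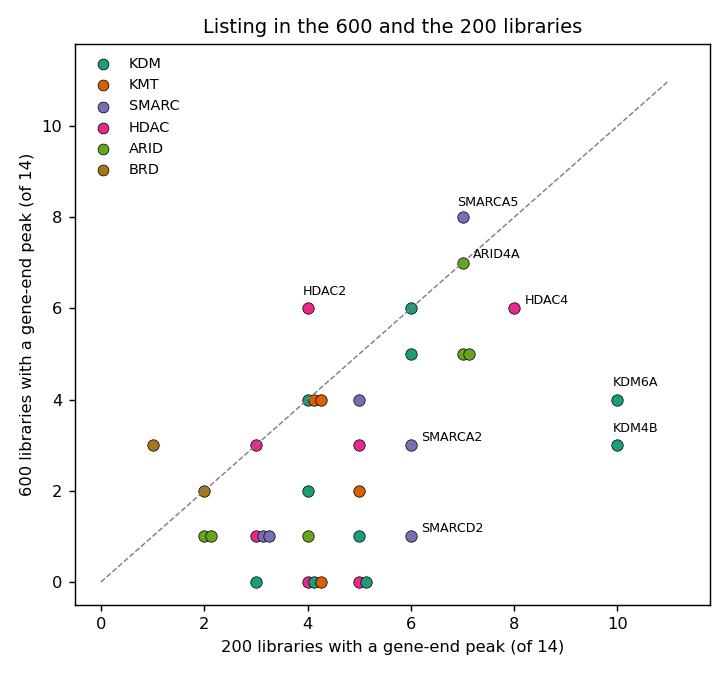
Number of 600 libraries (vertical axis, of 14) against the number of 200 libraries (horizontal axis, of 14) with a gene-end peak, with a point for each of the 35 chromatin genes listed in at least 3 libraries, coloured by family, and a dashed line of equality. Small offsets separate overlapping points. KDM4B at 10 against 3 and KDM6A at 10 against 4 lie farthest below the line, and SMARCA5 at 7 against 8 lies just above it.

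Within the assumed animals, a chromatin gene was listed in both libraries in 86 cases, in the 200 library only in 99 and in the 600 library only in 12. Of the 600 listings 87.8% were thus also seen in the 200 library of the animal, against 89.4% over all genes. Where both listed the gene, the 600 peak was the wider in 78 of 86 cases (90.7%, against 91.0% of 13573 cases of other genes). The median width was 889 bp in the 200 and 1211 bp in the 600 libraries. The 600 peak was the stronger in 11 of 86 cases (12.8%, against 4.30% of the other genes), and the median −log10 p was 5.42 in the 200 and 4.17 in the 600 libraries. Most of the 11 came from high fat replicate 7, with 5 of 23 cases, and from low fat replicate 7, with 4 of 12. High fat replicate 1 gave 0 of 19 and low fat replicate 1 gave 1 of 18. For SMARCA5 the 600 peak was wider in 7 of 7 animals and stronger in 0. Of the 12 cases listed in the 600 library only, BRD8 and HDAC2 gave 2 each. The cases of 1 animal share its libraries, so no test was made.

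The listed ends were as often the lower-coordinate as the upper-coordinate end of the gene. Of the 48 listed genes, 22 had peaks at the lower end only, 23 at the upper end only and 3 at both (6.25%, against 5.41% of all listed genes). The 3 were KMT2A, HDAC10 and SMARCB1. The annotation used gives no strand, so start sites could not be told from the other ends. Another gene's end shared the window of a peak in 15 of the 48, and with a peak given only to the nearest end KDM1B, HDAC6, KMT2D, KMT5B and BRD2 were no longer listed.

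Peaks of the chromatin genes lay more to the outside of the annotated gene than those of other genes. The 287 peaks had their centres at a median of −116.5 bp, where a negative value is outside the gene, and 31.7% were inside. For 47729 gene-end peaks of other genes the median was 17.5 bp and 53.4% were inside. Counted by gene, the median centre was outside in 31 of 48 chromatin genes (64.6%), against 44.1% of the others, and in 25 of the 35 listed in at least 3 libraries (71.4%), against 46.1%. The centres were within 500 bp of the end for 88.2% of the peaks of the set and 86.7% of the others. Peaks of 1 gene in several libraries are not independent, and no test was made.

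**Figure D5:**
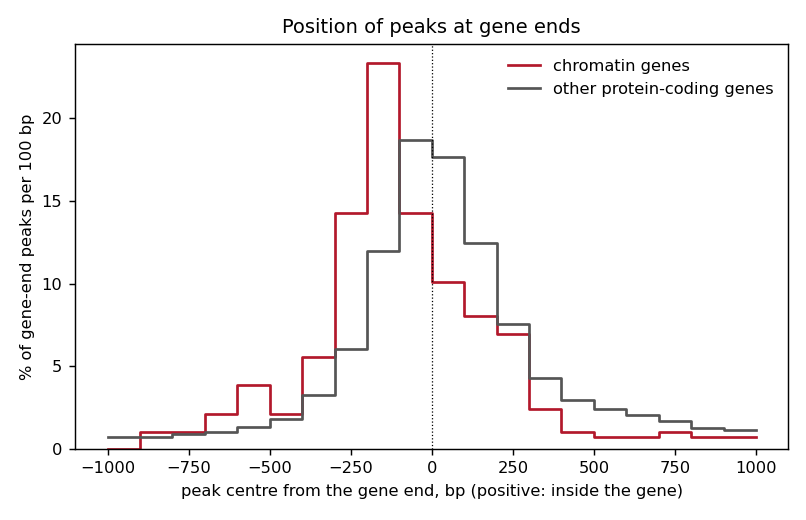
Position of the peak centre from the gene end in bp (horizontal axis, positive inside the gene) as the percent of gene-end peaks per 100 bp (vertical axis), for the 287 peaks of the chromatin genes and the 47729 of other protein-coding genes. The chromatin genes' line is shifted to the outside, with medians of −116.5 and 17.5 bp.

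Some of the chromatin genes without recurrent end peaks had them inside the gene instead. Over the set, 38 of 64 (59.4%) had a peak inside the gene and away from both ends, against 30.0% of all genes and 54.0% of genes at least as long as the set's median. In at least 10 libraries there were 4 such genes (6.25%), against 1.61% and 4.06%. ARID5B, a partner of a histone demethylase with a known part in fat metabolism in mouse, had a peak in 16 libraries 46.4 kb from its upper end (chromosome 14, 65551564 to 65553002). It was listed in 5 of 7 high fat 200, 5 of 7 low fat 200, 2 of 7 high fat 600 and 4 of 7 low fat 600 libraries, with a strength of 3.59 to 8.07 and a median of 4.92. KMT2E had one in 15 libraries, 34.5 kb from its lower end (chromosome 9, 104909803 to 104912456), with a strength of 3.09 to 7.60 and a median of 5.13, and the end of LOC106504991 lay 2.03 kb away.

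BRD2, a BET-family reader of acetylated histones, had an internal peak in 15 libraries, 10.1 kb from its upper end (chromosome 7, 25149704 to 25154966), although its end was listed only once. The strength ran from 3.61 to 7.40 with a median of 5.33, and the groups held 3, 5, 3 and 4 libraries in the order high and low fat 200, high and low fat 600. ARID1B had one in 13 libraries, 201 kb from its nearer end (chromosome 1, 9992531 to 9994449), with a strength of 3.61 to 8.90 and a median of 4.75, in 5, 4, 2 and 2 libraries in the same order. KDM2B had a weaker recurrent site in 5 libraries, all of the 200 set. Of the 16 genes without an end peak, 11 had a peak inside, and KDM5A, SMARCD1, SMARCE1, BRD9 and HDAC8 had no peak at an end or inside in any library.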

How the data were processed

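Genrich, BWA, Picard, SAMtools and FastQC are named, with Sscrofa11.1, per the submitters' processing notes. Versions and settings are not given in the sources used here. What was deposited lists peaks per library and holds no read counts. Per the file headers, each peak has a score, a signal value and a p-value column, which in the deposited values holds −log10 p. The lowest deposited signal, the area of a peak, was 400.006 and the lowest score 800, and no rule for these limits is given. Some listings lay close to the lowest signal, such as SMARCA1 with 400.382 in high fat 200 replicate 3. An unlisted end may thus hold a peak of smaller area. The authors' own strengths served to rank peaks or to filter them. Peaks were matched to ends of RefSeq genes by their centre, within 1000 bp. A further 1179 unplaced protein-coding genes were left out.

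Genes listed in at least 3 of the libraries compared were tested by Fisher's exact test, two-sided, with Benjamini-Hochberg adjustment over all protein-coding genes and a threshold of 0.05. The procedure was also run on simulated lists with planted genes. Those lists gave all libraries the same yield and the planted genes a near-complete contrast, so they do not show how the test performs on these data. The members and lists were chosen with earlier results of these data known. Named with full values were the 12 members listed in the most libraries, ties going to the stronger peaks, and per comparison the 3 with the smallest p in each direction, ties going to the larger difference, then the symbol. Some genes that these rules select are not reported here. The remaining genes are named by family, and internal peaks and genes that share an end were picked after their values were seen. No strand or sequence was used here, so the planned motif search and the start-site window were not run. Alternatives were other windows, ways to locate a peak, strength and yield limits, the nearest end only, each library left out, and a replicate block. Scripts ran under Python 3.11.15 and used pandas 2.3.3, scipy 1.17.1, numpy 2.4.6 and, for plots, matplotlib 3.10.9.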

Additional observations from a re-analysis of the deposited data

How the results depend on the processing

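The count of chromatin genes with an end peak, 48, was 14 for peaks in the top decile of strength and 19 with the 1000 strongest peaks of libraries with at least 1000. Other settings gave 38 to 59, and leaving out each library in turn gave 46 to 48. The number of chromatin genes called stayed 0 in each of the 4 comparisons under every alternative run, and leaving out each library gave 0 to 0. In designs of 7 against 7 the smallest p, 0.000583 by Fisher's exact test and 0.0156 by the sign test over 7 pairs, leaves a call hardly reachable over all genes tested, so these counts of 0 say nothing about stability. Between the 600 and 200 libraries, windows of 2500 and 5000 bp called 2 and 3 genes, none a chromatin gene. The replicate block, an exact sign test over same-numbered pairs, called 0 chromatin genes in all 4 comparisons. Between the 600 and 200 libraries it gave 104 genes and 2 chromatin genes at an unadjusted p under 0.05, against 237 and 3. The top decile gave 1 and 0, the 5000 bp window 347 and 5, peaks above the median strength 148 and 2, and leaving out each library in turn 237 to 680 and 3 to 8. Whether numbers pair the samples was checked by correlating deviations from group means. Same-numbered 200 and 600 libraries gave r from −0.00835 to 0.650, with 8 of 14 pairs over 0.1 and 9 correlating best with their own number. High and low fat libraries had 2 of 7 pairs over 0.1 in the 200 and 6 of 7 in the 600 set. Under each label only 2 of 7 correlated best with their own number, and their title numbers differ. The replicate numbers were thus not shown to pair high with low fat libraries. Among named differences that met no threshold, HDAC11 in the 200 libraries turned under 2 settings, HDAC2 and HDAC6 in the 600 libraries under 1 each, HDAC2, KDM3A and KDM4C over animals under 1 each, and SMARCA5 between labels under 3, where the cause was not tested. The window at start sites alone was not run, since no strand was used here.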

Other observations

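Other chromatin genes, whose symbols lie outside the rule, were listed at an end in 83 of 129 cases (64.3%), and 19 of them (14.7%) in at least 10 libraries. Corepressor complex and sirtuin genes had 13 of 22 listed. They were led by GATAD2A, a subunit of the NuRD deacetylase complex, in 18 libraries, by SAP30 of the SIN3 complex in 15 and by the deacetylase gene SIRT1 in 11. CHD, INO80 and ISWI remodeller genes had 15 of 23, with RSF1, a partner of the SMARCA5 product, in 16 and INO80B in 13, while CHD1, CHD2, CHD3, CHD4 and CHD9 were not listed. SWI/SNF partner genes had 9 of 16, with ACTL6A in 14 and SS18 in 10. Other methyltransferase and COMPASS genes had 20 of 27, led by SETD5 in 15 and SETDB2 in 14. Polycomb genes had 17 of 23, among them the methyltransferase gene EZH2 in 12. Acetyltransferase genes had 6 of 11, with KAT7 in 10, and CREBBP, KAT2A and KAT5 were not listed. DNA methylation genes had 3 of 7, none in 3 or more libraries, and DNMT1, TET1, TET2 and UHRF1 were not listed.

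Of these genes 49 were tested between fat groups in the 200 libraries, 24 in the 600 libraries and 49 over animals, and 0 were called at an adjusted or an unadjusted p under 0.05 (Fisher's exact test). Between the 600 and 200 libraries 50 were tested, 0 were called after adjustment and 7 (14%) at an unadjusted p under 0.05, against 4.13% of all genes tested. These unadjusted counts for all genes rose to as many as 680 genes when single libraries were left out.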
